A study of Homo sapiens with 2 samples.

Results

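THAP genes encode DNA-binding proteins that share the THAP domain, and the 10 described here are THAP1 to THAP10, without THAP11, which encodes RONIN, and THAP12. These 10 genes are the members, and a row of the annotated mTOR peak table was assigned to a member where its gene name was one of the 10. The background was the 19970 protein-coding genes with coordinates on the chromosomes that carried peaks. Of the 21440 peaks, 2 were assigned to a member, 1 to THAP1 and 1 to THAP5, and the other 8 genes had none. The table came from 1 chromatin immunoprecipitation and sequencing (ChIP-seq) library made with an antibody against mTOR, the growth-controlling kinase, from MDA-MB-231 cells, a human line of triple-negative breast cancer kept in DMEM with serum. An input library from the same line, without enrichment, was the reference for calling peaks. Both were of untreated cells as far as the labels say, each group was 1 library without a replicate, and no test between groups was possible. Sequencing depth is unknown, because a peak list holds no read counts, and a gene without a peak is one where none was called at that depth.

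The THAP domain is a zinc-coordinating fold with a conserved cysteine and histidine pattern, and it is related to the DNA-binding domain of the P element transposase of Drosophila. THAP proteins act as transcription factors or chromatin adaptors, and several of them, RONIN among them, bind the transcriptional coregulator HCF-1. The series concerns RONIN in a nuclear complex with mTOR and PML, and the question for the remaining family is where mTOR peaks lay at their own genes.

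THAP1, which regulates cell cycle genes and is mutated in a form of inherited dystonia, was the only member with a peak of its own at the promoter. The peak covered chr8:42843177-42843507 on hg38, 331 bp, and was deposited in the promoter-TSS class of a THAP1 transcript. Its centre lay 11 bp upstream of the assigned start by the deposited distance. The deposited score was 45, on a scale of the authors that the sources do not state and that serves here only to rank peaks. Among the 3334 peaks within 1 kb of the start of their assigned protein-coding gene, called promoter peaks below, 41.6% scored the same or lower and 24.0% were as narrow or narrower. The median promoter peak scored 54 and was 446 bp wide, so the THAP1 peak lay below the median in both. The span of an uncharacterised long non-coding RNA gene, LOC124901940, also overlapped this peak.

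The count of 1 in 10 members with a promoter peak, 10.0% (exact Clopper-Pearson 95% interval 0.253 to 44.5%, counting error only), stood beside 15.5% of all protein-coding genes. An assigned peak at any distance was found for 2 of 10 members (20.0%, 2.52 to 55.6%), beside 41.7% of protein-coding genes. Both intervals contain the background share, and 10 genes are too few to place the family above or below it.

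THAP5, a gene whose product is a substrate of the mitochondrial protease HTRA2, had the other assigned peak. It covered chr7:108557256-108557541, 286 bp, with a score of 37, and its centre lay 12055 bp downstream of the assigned start. The deposited class was intergenic, yet in the RefSeq table used here the peak lay inside the THAP5 span, 108541759 to 108569768. The centre was labelled MSTA-int, an endogenous retroviral internal sequence of the ERVL-MaLR family. Of the 179 peaks in the whole list with that label the median score was 82, so the THAP5 peak was on the low side of its repeat as well.

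Peaks were also counted by position, whatever their assigned name. A peak lay in the gene or within 1 kb of it for 6 of the 10 members (60.0%, 26.2 to 87.8%, counting error only), with 36.6% for all protein-coding genes. Each of these 6 genes, THAP1, THAP4, THAP5, THAP7, THAP8 and THAP9, had a single such peak, and 4 of the 6 peaks carried the name of a neighbouring gene. How often peaks in or within 1 kb of any gene carry another name was not computed, so this count does not set the family apart. At the start site itself, 3 of 10 members had any peak within 1 kb, THAP1, THAP7 and THAP9 (30%, 6.67 to 65.2%), beside 18.6% of protein-coding genes. Both intervals contain the background share, as they did for assigned peaks. The last 2 of these 3 genes had no assigned peak. Over all 3723 protein-coding genes with a peak at a start, 14.4% had no peak under their own name.

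**Figure D1:**
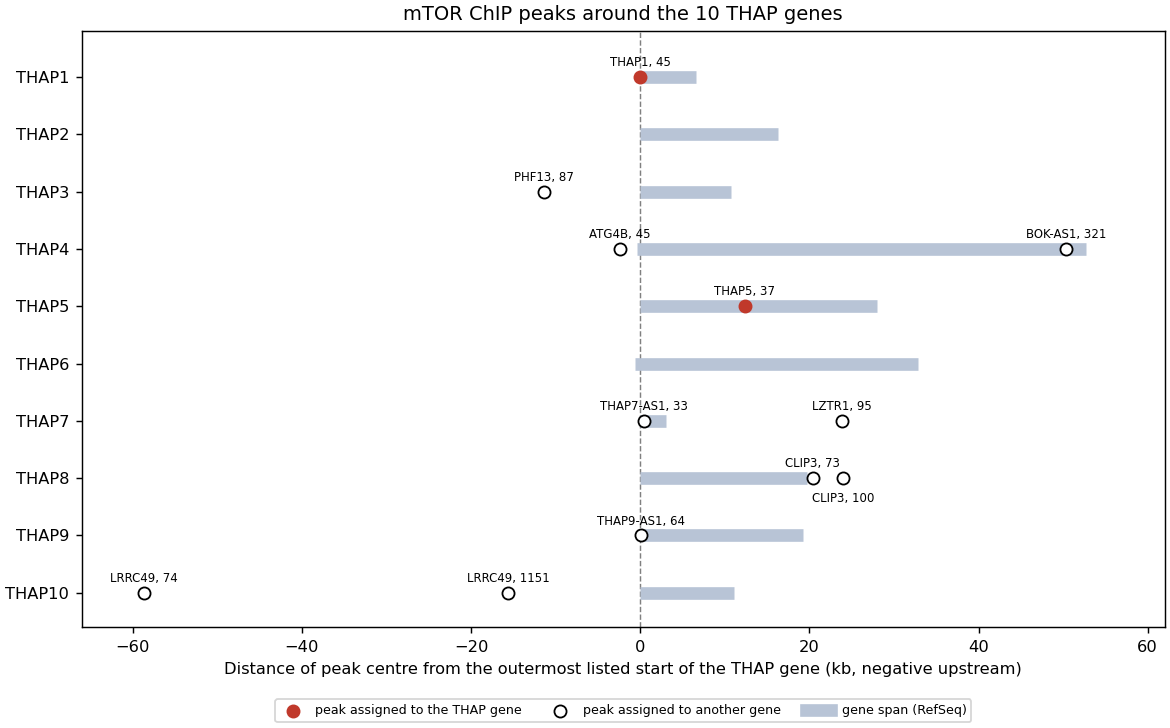
Each row is a THAP gene, with its RefSeq span as a bar and the centres of all peaks within 60 kb of its outermost listed start as circles, labelled with the assigned gene and the deposited score; the horizontal axis is the distance in kb, negative upstream. Filled circles, assigned to the THAP gene, are seen for THAP1 and THAP5, while the circles on the bars of THAP4, THAP7 and THAP9 are open because another gene was assigned.

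THAP9 is a domesticated transposase gene whose product keeps the P element-like catalytic part. The peak at its start covered chr4:82900671-82901032, 362 bp, with a score of 64, the highest of the 3 start-site peaks. Its centre was 116.5 bp downstream of the THAP9 start at 82900735. It was also 65 bp downstream of the start of THAP9-AS1, the antisense RNA gene, by the deposited distance, and the peak was assigned to that gene. The transcript named in its promoter-TSS class was one of SEC31A, a COPII vesicle coat gene whose start at 82900569 faces the other way. So 3 genes shared the stretch, and the peak reached across the starts of THAP9 and THAP9-AS1, which lie 181 bp apart, but not across that of SEC31A. The stretch between the SEC31A and THAP9 starts (chr4:82900570-82900734, plus strand) and the 150 bases upstream of THAP9-AS1 (chr4:82900917-82901066, minus strand) are shown because the peak covered part of each. These and all other sequences here are from RefSeq on GRCh38.p14, a patch release of hg38 with the same coordinates on these chromosomes, and capitals mark the bases inside the peak.
THAP9 to SEC31A: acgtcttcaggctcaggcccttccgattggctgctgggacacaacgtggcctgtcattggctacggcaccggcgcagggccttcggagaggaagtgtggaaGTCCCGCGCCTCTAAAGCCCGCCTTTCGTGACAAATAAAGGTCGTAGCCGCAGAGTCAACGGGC
THAP9-AS1 upstream: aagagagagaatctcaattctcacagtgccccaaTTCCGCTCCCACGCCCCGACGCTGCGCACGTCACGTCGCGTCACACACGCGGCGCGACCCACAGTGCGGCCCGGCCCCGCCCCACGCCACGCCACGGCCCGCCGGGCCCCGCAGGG
The peak held 64 of the 165 bases in the first sequence and 116 of the 150 in the second. GC content was 61.2% in the first and 72.7% in the second.

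THAP7, which encodes a repressor that binds histone H4 tails and recruits HDAC3 and NCoR, had a peak just inside the gene. It covered chr22:21001590-21001844, 255 bp, with a score of 33. The near edge was 274 bp and the centre 401 bp downstream of the THAP7 start at 21002118. The table assigned it to THAP7-AS1, the antisense RNA gene whose start at 21001922 lies 196 bp inside THAP7, and placed it in the promoter-TSS class of that RNA with the centre at -205 bp. This was the lowest score and the smallest width of the 6 peaks at THAP genes: 24.6% of promoter peaks scored the same or lower and 2.34% were as narrow or narrower, the narrowest peak of the whole list being 248 bp. The 150 bases upstream of THAP7-AS1 (chr22:21001772-21001921, plus strand) hold the part of the peak next to that start, again in capitals.
THAP7-AS1 upstream: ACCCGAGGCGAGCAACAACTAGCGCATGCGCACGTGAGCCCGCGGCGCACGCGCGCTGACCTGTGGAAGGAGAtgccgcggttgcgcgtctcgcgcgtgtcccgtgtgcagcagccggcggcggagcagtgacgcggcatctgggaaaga
Within the capitals is 1 match to the palindromic NRF1 type motif, at 21001793 to 21001802. A match to CACGTG, the palindromic E-box, at 21001802 to 21001807 shares its first base with the end of that match. The NRF1 type motif was found in 1.24% and the E-box in 7.25% of the 35097 promoter windows searched on both strands. These windows run from 250 bases before to 50 after a start, as does that of THAP7-AS1, and are longer than the stretch shown. A match describes letters in the window and not a bound factor.

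THAP4, whose product joins a THAP domain to a haem-binding nitrobindin domain, carried the strongest of the 6 peaks. It covered chr2:241586280-241587401, 1122 bp, with a score of 321, rank 968 of the 21440. The deposited annotation placed it in intron 4 of 4 of a THAP4 transcript, over an L1MB7 element, and assigned it to BOK-AS1, with a deposited distance of -27697 bp. The peak lay 50317.5 bp downstream of the THAP4 start at 241637158, near the far end of a gene of 53172 bp, the longest of the 10. The 168 peaks with an L1MB7 label had a median score of 66. A weaker peak of score 45 lay on the other side, at chr2:241639410-241639738, in the first intron of ATG4B, the gene of a protease that processes ATG8 proteins in autophagy. Its near edge was 2252 bp upstream of the THAP4 start, so that THAP4 had a peak within 5 kb of its start and none within 1 kb.

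THAP8 had its peak at the opposite end of the gene from the start. It covered chr19:36034124-36034624, 501 bp, with a score of 73, and was deposited in the TTS class, the surroundings of a transcript's end, of a THAP8 transcript. It began 360 bp beyond the 3' end of the RefSeq span and was assigned to CLIP3, a neighbouring gene for a CAP-Gly domain protein, with the centre at -1501 bp from the assigned start. Here the class named THAP8 and the assigned gene did not. The span of a long non-coding RNA gene, LOC101927572, overlapped the peak too.

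The other 4 genes, THAP2, THAP3, THAP6 and THAP10, had none inside their spans or up to 1 kb outside. For THAP3, which encodes a partner of HCF-1 and OGT, the nearest peak was 11113 bp upstream of the start, at the promoter of PHF13, a gene for a chromatin reader (score 87). For THAP10 it was 14798 bp upstream, at chr15:70907231-70908850, 1620 bp wide with a score of 1151, rank 53 of the whole list. That peak lay in intron 5 of 15 of LRRC49, a gene for a tubulin polyglutamylase subunit that starts 393 bp from THAP10 on the other strand. For THAP2 the nearest peak was 95770 bp from the start and had a score of 45, in the first intron of RAB21, an endosomal GTPase gene. For THAP6 it was 260900 bp away, with a score of 87 and LINC02483 as its assigned gene.

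In order of the gap from a start to the nearest peak edge, the members were THAP1 and THAP9 at 0 bp, then THAP7 at 274 bp, THAP4 at 2252 bp, THAP3 at 11113 bp, THAP5 at 11912 bp, THAP10 at 14798 bp, THAP8 at 19661 bp, THAP2 at 95770 bp and THAP6 at 260900 bp. The median over the 10 was 11512.5 bp and over all protein-coding genes 26224.5 bp, and 8 of the 10 were nearer than that second median. THAP6 was farther from a peak than most genes, since 92.3% had a gap as small or smaller. Within 100 kb of the gene the members had from 0 peaks (THAP6) to 7 (THAP4), with a median of 2.5 where protein-coding genes had a median of 2.

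**Figure D2:**
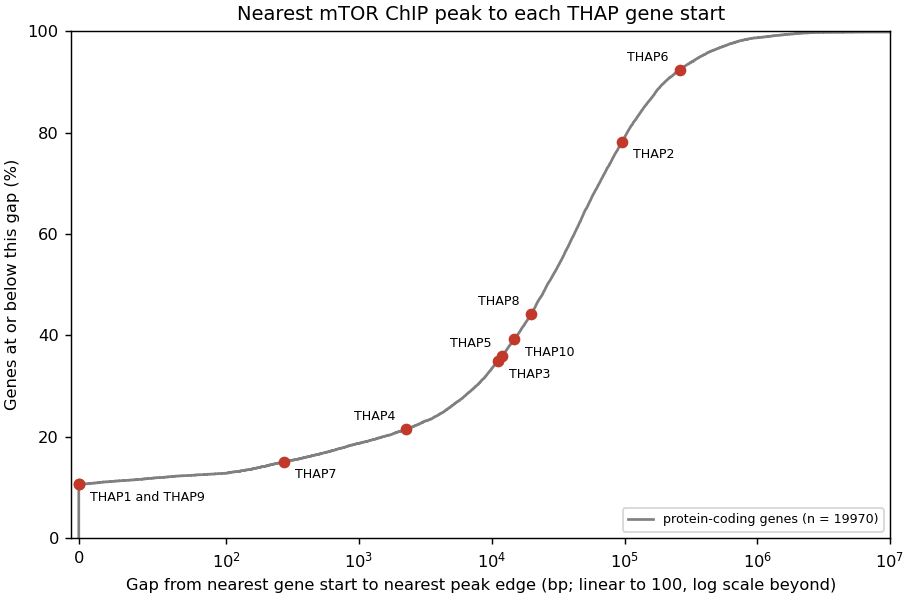
The line gives the percentage of 19970 protein-coding genes whose start lay within a given gap of the nearest peak edge (horizontal axis in bp, linear to 100 and logarithmic beyond), and the points place THAP1 to THAP10 on it. THAP1 and THAP9 sit at 0 bp, THAP7 at 274 bp, and THAP2 and THAP6 at the far right with 95770 and 260900 bp.

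The 6 peaks at THAP genes were mostly of middle or low rank. Scores were 33 at THAP7, 37 at THAP5, 45 at THAP1, 64 at THAP9, 73 at THAP8 and 321 at THAP4, and the median of all peaks was 61. Widths ran in the same order, 255, 286, 331, 362, 501 and 1122 bp, with a median of 400 bp over all peaks. The 3 peaks at start sites, those of THAP7, THAP1 and THAP9, were all narrower than the median promoter peak. A repeat label was given to 2 of the 6 peaks, at THAP4 and THAP5, and to 64.4% of all peaks. Each peak carries a single such label, and at THAP1, THAP7, THAP8 and THAP9 it was the promoter-TSS or TTS class. A repeat under those centres would not show, so the 2 shares are not alike. For comparison, the peak across the start of THAP11 scored 80 and was 856 bp wide, so it exceeded the 3 start-site peaks of the members in both. With 1 library these differences have no replicate error to be set against.

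**Figure D3:**
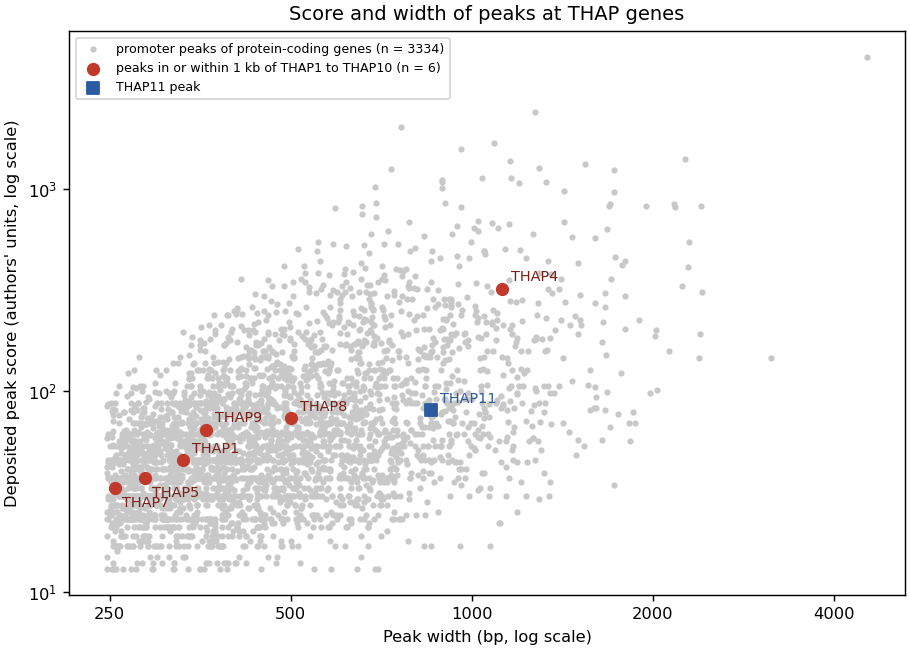
Grey points are the 3334 promoter peaks of protein-coding genes by width in bp and deposited score, both on log axes, red points are the 6 peaks in or within 1 kb of THAP genes, and the blue square is the peak at THAP11. The THAP7, THAP5 and THAP1 peaks lie below the median promoter peak in both width and score, the THAP9 peak (score 64) below it in width only, and the THAP4 peak, 1122 bp wide with a score of 321, lies apart from them.

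A feature that most THAP genes shared was a close neighbour on the opposite strand. Of the 9 members with a start in the RefSeq promoter table, all but THAP3 had a start of another gene on the other strand within 1 kb, against 26.0% of the 15812 protein-coding genes in that table. The gaps were 43 bp from THAP6 to RCHY1, a ubiquitin ligase gene, 106 bp from THAP5 to DNAJB9, an endoplasmic reticulum co-chaperone gene, and 135 bp from THAP8 to WDR62, a spindle pole gene. SEC31A was 166 bp from THAP9, LRRC49 393 bp from THAP10, ZFC3H1, a nuclear RNA decay gene, 453 bp from THAP2, and ATG4B 535 bp from THAP4. THAP7 and THAP9 also overlapped the starts of their antisense RNAs. None of these 7 protein-coding neighbours had a promoter peak assigned to it, beside 18.0% of all protein-coding genes with an opposite-strand start within 1 kb. A count of 0 in 7 still allows a share of up to 42.9% by the limit of 3 counts and 41.0% by the exact 95% interval. That count is of assigned names only. By position, the peak at the THAP9 start also lay within 1 kb of the SEC31A start.

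The table gives each peak to 1 gene. Among the 4105 protein-coding genes with an opposite-strand start within 1 kb, 27.6% had any peak at a start and 18.0% had one under their own name. For genes without such a neighbour the shares were 16.3% and 15.7%. Of the 8 members with such a neighbour, 2 had any peak at the start, THAP7 and THAP9, and 0 had one under their own name, which allows up to 37.5% by the limit of 3 counts. Both peaks were named after the antisense RNAs.

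Promoter letters were searched for 8 motifs in the windows of the 9 members in the table, counting a gene once if any of its windows held a match on either strand. The RONIN and ZNF143 type motif was in 0 of 9 members and in 3.11% of protein-coding genes. At so low a share, 9 genes are too few to place the family below it. TNNGGCA, the core of the THAP1 type, was in 5 of 9, namely THAP2, THAP3, THAP4, THAP8 and THAP9, and in 44.7% of genes. CACGTG was in 4 of 9, THAP5, THAP6, THAP7 and THAP8, and in 10.9% of genes. With 9 genes and 8 motifs searched, a difference of this count from that share was not tested. At THAP8 the CACGTG matches were only in the window of its inner start. CCGGAAG, the ETS type, was in THAP5, THAP7 and THAP10 (16.5% of genes), and TGACGTCA, the CREB type, in THAP3 (3.0%). GGGCGG, the SP1 type, was in 7 of 9 (64.3%) and CCAAT, the NF-Y type, in 5 of 9 (42.1%). The NRF1 type motif was in none of the members' own windows (1.99% of genes), where 9 genes are again too few. THAP8, with 3 matches to CACGTG before its inner start, had no peak within 5 kb of a start. The windows of THAP7 and THAP9, genes with peaks near their starts, shared only GGGCGG among these motifs. The THAP7 window lay outside the peak, however. The THAP7-AS1 window, which that peak reached, held CACGTG and the NRF1 type motif and no GGGCGG. A relation of motifs to peaks was not tested. The sequences between the paired starts of THAP5 and DNAJB9 (chr7:108569769-108569873, minus strand) and of THAP8 and WDR62 (chr19:36054763-36054896, minus strand) are shown as stretches between paired starts with no peak over them. In these, capitals mark motif matches, ATTGG being CCAAT on the other strand.
THAP5 to DNAJB9: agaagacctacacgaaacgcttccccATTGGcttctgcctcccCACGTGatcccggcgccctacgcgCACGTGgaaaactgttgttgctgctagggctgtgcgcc
THAP8 to WDR62: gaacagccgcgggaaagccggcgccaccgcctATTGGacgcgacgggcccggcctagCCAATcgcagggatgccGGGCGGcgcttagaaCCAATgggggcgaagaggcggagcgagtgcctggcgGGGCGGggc
Their GC content was 61.0% and 73.1%. The stretches shown above that a peak reached had 61.2% (THAP9), 72.7% (THAP9-AS1) and 70% (THAP7-AS1). Those values are of whole stretches, with the bases outside the peaks counted too. GC content of the members' windows ran from 51.3% at THAP2 to 79.3% at THAP4, around a median of 62.3% over protein-coding windows. The THAP9 window had 58.3% and that of THAP7 67.0%. The THAP7 window lay outside its peak, and THAP1 had no window, so these values do not describe the sequence under the start-site peaks. A relation of GC content to peaks was not tested.

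Beside the family stood 2 gene lists. Genes tied to THAP proteins as partners or targets had a promoter peak in 5 of 18 (27.8%, 9.69 to 53.5%), with a median score of 53. ZNF76, a relative of ZNF143, had a score of 164, and OGT, the O-GlcNAc transferase that modifies and cleaves HCF-1, had 159. E2F3, a cell cycle transcription factor gene, had 53, EIF2AK2, the RNA-activated kinase PKR, 45, and PAWR, the apoptosis factor that binds THAP1, 23. HDAC3 and NCOR1, which encode the corepressors recruited by THAP7, had no assigned promoter peak, and the peaks at their starts, with scores of 37 and 48, were assigned to RELL2 and PIGL. A peak at a start of ZNF143, with a score of 156, was assigned to LOC644656. No peak lay at a start of TOR1A, another dystonia gene, of HTRA2 or of RRM1, a nucleotide reductase gene under THAP1 control.

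Other genes derived from DNA transposons, the wider group to which THAP9 belongs, had a promoter peak in 5 of 34 (14.7%, 4.95 to 31.1%), close to the 15.5% of all protein-coding genes. These were PGBD2 with a score of 310, GTF2IRD2B with 201, SETMAR, a histone methyltransferase fused to a mariner transposase, with 120, POGZ, a chromatin regulator, with 96, and ZBED5 with 61. The first 4 of these scores were above the 3 start-site scores of the THAP genes, and that of ZBED5 lay between THAP1 and THAP9. These scores are of assigned peaks, while the start-site peaks of THAP7 and THAP9 were assigned to other genes. Whatever the assignment, the top scores at a start in this list ran from 30 at TIGD2 to 314 at HARBI1. In that count the top peak at PGBD2 scored 119 and was assigned to ZNF692. The PGBD2 peak of 310 was therefore near its assigned start only, and not within 1 kb of a start used in that count. GTF2IRD2B has a near-identical copy, GTF2IRD2, so its reads may not be told apart from those of the copy. With any peak at a start, whatever its name, the counts were 8 of 18 partners and targets (44.4%, 21.5 to 69.2%) and 11 of 34 transposon-derived genes (32.4%, 17.4 to 50.5%), beside 3 of 10 THAP genes and 18.6% of all. The interval of the partners and targets lay above that share and those of the other lists contained it. For partners and targets this count was chosen after the data were seen, and the list with earlier results known, so it does not test for enrichment. HDAC3, NCOR1 and ZNF143 entered it only through peaks assigned to other genes. In the planned count, of assigned promoter peaks, the interval of 9.69 to 53.5% contained the background share of 15.5%.

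**Figure D4:**
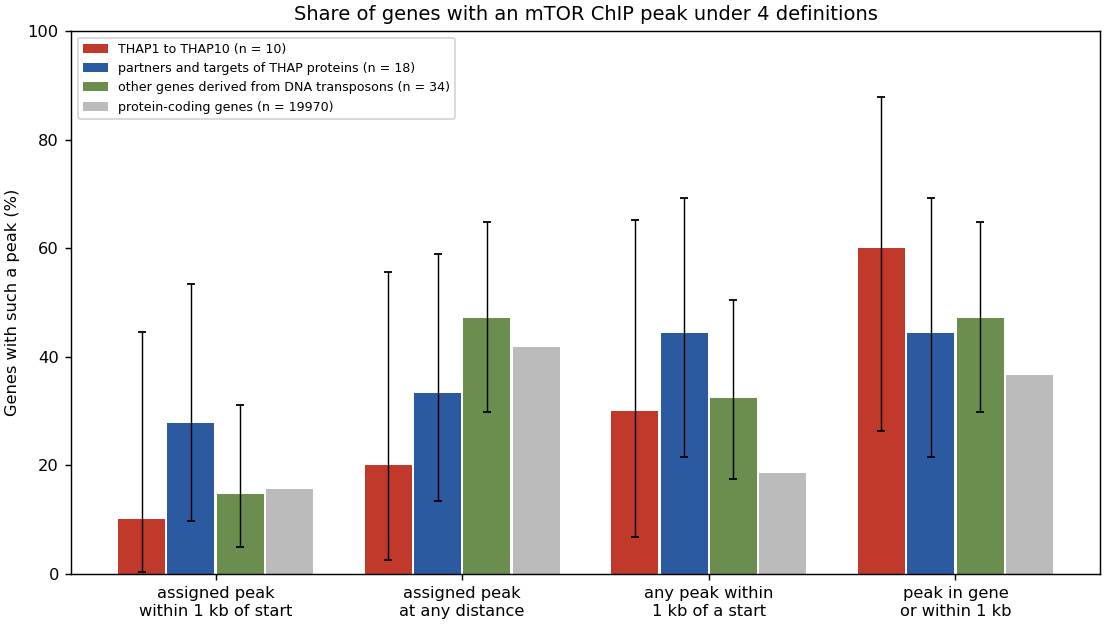
Bars give the percentage of genes with a peak under 4 definitions for THAP1 to THAP10, the 18 partners and targets, the 34 transposon-derived genes and all 19970 protein-coding genes, with exact Clopper-Pearson 95% intervals (counting error only) for the lists. The THAP bars rise from 10.0% for an assigned promoter peak to 60.0% for a peak at the gene, and the intervals of the 10 genes span the background bar in every definition.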

How the data were processed

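Data were the annotated peaks of 1 mTOR ChIP library. Per the submitters' processing notes, which give no settings, the build was hg38 and the tools were Trimmomatic 0.36, BWA 0.7.12, Picard 2.0.1, MACS2 2.1.1.20160309 and HOMER 4.11.1. For the peak threshold and the handling of duplicate and multiply aligned reads, settings were not given in the sources used here. The authors deposited a whole-number score per peak, of unstated scale, which was used only to rank peaks, and positions and distances in bp, used as deposited.

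A promoter peak overlapped 1 kb either side of the assigned start, from the deposited distance and peak width. Peaks were also counted at any start in the RefSeq promoter table (GRCh38.p14), whatever their assignment. The 4158 protein-coding genes without an entry there, THAP1 and THAP12 among them, were taken by both ends of the gene span. Exon models and protein sequences were not used here. With 1 library no test was made and counts are set beside the share of all protein-coding genes. Intervals are exact Clopper-Pearson 95% intervals.

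All 10 members are named, with THAP11, THAP12, neighbours sharing a start region or an assigned peak, and up to 5 top genes of each list. LINC02483, RAB21, PHF13, LOC124901940, LOC101927572 and the list genes without an own promoter peak were named after their values were seen. Members and lists were chosen with earlier results of these data known. Overlap and motif functions were tested on simulated data. Software was matplotlib 3.10.9, scipy 1.17.1, pandas 2.3.3 and numpy 2.4.6 under Python 3.11.15.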

Additional observations from a re-analysis of the deposited data

How the results depend on the processing

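THAP1 remained the single member with an assigned promoter peak for windows of 100 bp and 5 kb, for the deposited promoter class and for peaks with most of their length in the window, where the shares of protein-coding genes were 10.9%, 20.3%, 12% and 15%. With the 10720 higher-scoring peaks, whose lowest score was 61, the count was 0 of 10 (7.45% of genes), and with the 2144 top-scoring ones it was 0 (1.57%). A count of 0 in 10 allows up to 30.8% by the exact interval and 30% by the limit of 3 counts. Counted whatever the assignment, it was 3 (18.6%). Members with any assigned peak fell from 2 to 0 in both higher-scoring sets (26.7 and 7.01% of genes), and to 1, THAP1, within 10 kb of the start (24.1%). The following settings were chosen after the data were seen. Any peak at a start was found for 2 members within 100 bp (12.8% of genes), 4 within 5 kb (26.1%) and 1, THAP9, among the higher-scoring peaks (9.34%). Peaks named after a neighbour numbered 3 with a margin of 100 bp around the gene, 6 with 5 kb and 3 among the higher-scoring peaks, against 4. For peaks named after a neighbour no share over all genes was computed. Of the 18 partners and targets, those with a promoter peak went from 5 to 2 among the higher-scoring peaks and to 8 whatever the assignment. Of the 34 transposon-derived genes, the count stayed at 5 and went to 11. The share of all protein-coding genes went from 15.5% to 7.45% and to 18.6% in the same settings. No paired analysis was possible because neither library has a replicate. A peak list without read counts does not show which genes fell short of a call.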

Other observations

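THAP12, the remaining family gene and one linked to the interferon-induced kinase PKR through its inhibitor, had 1 assigned peak and none at its start. That peak, chr11:76334621-76335698, scored 202 with a width of 1078 bp and was deposited as intergenic, 45806 bp downstream of the start. Its near edge lay 14258 bp outside the gene span. The centre was labelled MSTA-int, the same retroviral label as at the THAP5 peak.

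A THAP3 pseudogene on chromosome 1, named LOC100129138 in the table, was the nearest gene of 6 peaks, while THAP3 itself had none. All 6 had a repeat label, their distances ran from 112404 to 591691 bp, and their scores from 17 to 284. They carry a THAP description only through the nearest start site, and a search of the gene descriptions for THAP would count them.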
